A study of Mus musculus with 9 samples.

Results

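The genes examined here are 8 markers of tanycytes, Rax, Vim, Nes, Col23a1, Lhx2, Gpr50, Scn7a and Fgf10, followed through RNA sequencing of the mouse mediobasal hypothalamus. They were chosen by gene symbol, taking every quantified transcript of each and summing it per gene, and are 8 of the 35975 genes with a quantified transcript. All 8 passed the filter on low counts, and all 8 have a row in the gene table that the authors deposited. The 9 libraries came from male wild-type C57Bl/6 mice at postnatal day 21. In the control group (CTRL, 4 libraries), dams drank water. In the emulsifier group (Emul, 5 libraries), dams drank water with 1% carboxymethylcellulose (CMC) and 1% polysorbate 80 (P80), both common food emulsifiers, from before pregnancy and through gestation and lactation. Each library stands for 1 litter, so the spread reported is a spread between litters. The pups stayed with dams on this water until sampling, so exposure through the mother and direct intake cannot be told apart.

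Tanycytes are elongated cells that line the floor and lower walls of the third ventricle, with a cell body at the ventricle and a long process that runs into the arcuate nucleus or the median eminence. They descend from radial glia and keep several of their genes, take up hormones and nutrients between blood, cerebrospinal fluid and neurons, and some of them divide after birth. Rax and Lhx2 encode transcription factors of their lineage, Vim and Nes the filament proteins of their processes, Col23a1 a transmembrane collagen, Gpr50 an orphan receptor related to the melatonin receptors, Scn7a a sodium channel that responds to extracellular sodium, and Fgf10 a growth factor made by tanycytes close to the median eminence.

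Between 28245360 and 46067534 estimated counts were assigned per library. Levels between genes were compared as TPM, in which counts are divided by transcript length and scaled to the same total in every library. Vim was the most abundant at 50.2 ± 6.30 TPM (SD, n = 9 libraries), and its lowest library, at 40.0 TPM, lay above the highest of every other marker. Col23a1 followed at 15.3 ± 1.73 TPM, then Gpr50 at 10.3 ± 1.70, Scn7a at 6.80 ± 0.840 and Lhx2 at 5.20 ± 1.17. Nes reached 3.84 ± 0.477 TPM, Fgf10 2.95 ± 0.340 and Rax 2.54 ± 0.348. The ranges over the 9 libraries did not overlap between Vim and Col23a1, nor between Gpr50 (8.32 to 13.8 TPM) and Scn7a (5.73 to 7.95 TPM). The other neighbours in this order had overlapping ranges and are not separated beyond the spread.

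The tissue held many other cell types. Gfap, the filament of astrocytes, was at 214 ± 46.2 TPM and Npy, a peptide of arcuate neurons, at 222 ± 44.1 TPM, both far above any of the 8 markers. Vim and Nes are also used by endothelial and mural cells, and Vim by astrocytes and ependymal cells. Foxj1, which switches on motile cilia in ependymal cells, was at 14.3 ± 1.75 TPM, a marker level that shows the ventricle wall within the dissections. In such bulk tissue, fewer tanycytes and less RNA per tanycyte cannot be told apart.

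None of the 8 markers passed a test of the difference between Emul and CTRL. The comparison was made with limma-voom on counts scaled by library (TMM), and single values were also compared by an exact permutation test over every way to label 4 of the 9 libraries CTRL. At an unadjusted p under 0.05, 0 of 8 markers were called, where 15.8% of the 15340 genes tested were (6.84% higher and 8.99% lower in Emul). At an adjusted p under 0.05, 0 of 8 were called, against 0.117% of all genes. A cutoff after the study's methods, a p under 0.05 (taken here as unadjusted, although the study elsewhere names a false discovery rate) with a fold change above 1.5, was passed by 0 of 8 and by 0.469% of all genes. In 0 of 8 did the libraries of the groups fail to overlap, which happened for 6.6% of all genes. The edgeR and DESeq2 tests also called 0 of 8 at an unadjusted p under 0.05. Of the 8, 6 were lower in Emul and 2 higher, with a median log2 fold change of -0.05 for the markers and 0.00 over all genes. The median size of the difference, whatever its direction, was 0.07 for the markers and 0.06 over all genes.

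The intervals bound what could have been missed. Over the 8 markers, the 95% intervals of the log2 fold change reached from -0.37, the lower end for Rax, to 0.42, the upper end for Lhx2. All of them lay inside the fold of 1.5 of that cutoff, which is 0.58 on the log2 scale.

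**Figure D1:**
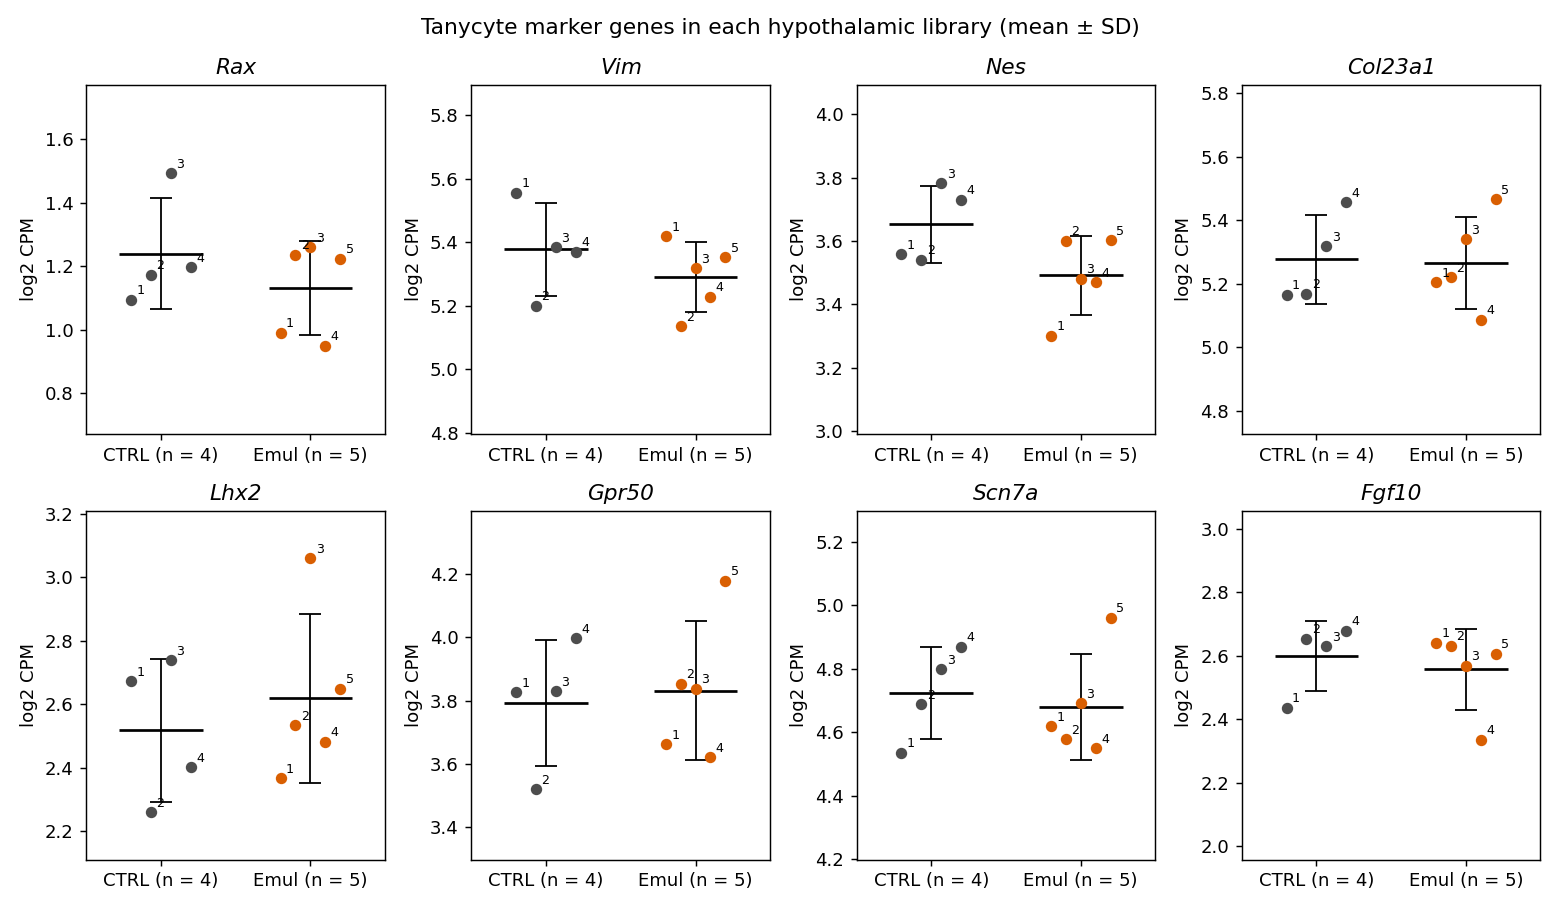
Log2 CPM (counts scaled to the size of the library) of the 8 markers in each library, CTRL in grey (n = 4) and Emul in orange (n = 5), numbered by replicate, with the group mean and SD as black lines; every panel spans the same range of log2 units. The groups overlap in all 8 panels, and Nes has 3 Emul libraries below the lowest CTRL library.

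The transcription factors had the largest standard errors of the 8 markers. Rax (GRCm38, as for all coordinates, chromosome 18, minus strand), the homeobox gene that defines the tanycyte lineage in the hypothalamus, was at 1.09, 1.17, 1.49 and 1.20 log2 CPM in CTRL 1 to 4. In Emul 1 to 5 it was at 0.99, 1.24, 1.26, 0.95 and 1.22 log2 CPM. CTRL 3 was the highest library and Emul 1 and Emul 4 the lowest, while 3 Emul libraries lay inside the CTRL range. The log2 fold change was -0.10 (SE 0.12, 95% interval -0.37 to 0.17, limma p = 0.437, adjusted p = 0.734, exact permutation p = 0.349). Between 76.5 and 96.7 estimated counts stood behind each value, the fewest of the 8 markers. At the lowest of these, counting alone gives a relative error of 11.4%.

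Lhx2 (chromosome 2, 38339281 to 38369733, plus strand), a LIM homeobox gene that acts in tanycytes and radial glia and also in thalamic and other forebrain neurons, had the widest interval. It was at 2.67, 2.26, 2.74 and 2.40 log2 CPM in CTRL 1 to 4 and at 2.37, 2.53, 3.06, 2.48 and 2.65 in Emul 1 to 5. Only Emul 3 lay above the CTRL range. The log2 fold change was 0.11 (SE 0.14, interval -0.20 to 0.42, limma p = 0.446, adjusted p = 0.739, exact permutation p = 0.603), and 0.01 without Emul 3.

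Emul 3 was also the library with the most RNA of thalamic neuron genes, a list of 6 chosen after values were seen. Tcf7l2, which specifies thalamic neurons, was at 6.37 log2 CPM there and between 4.37 and 5.64 in the other libraries. Shox2 was at 4.12 against -1.09 to 2.99, and all 6 of the genes were highest in Emul 3. Emul 1 and Emul 2 also lay above every CTRL library for Tcf7l2, at 5.64 and 5.49 against 4.37 to 5.17. The same held for Shox2, at 2.99 and 2.85 against -1.09 to 1.99. Lhx2 was at 2.37 and 2.53 in Emul 1 and Emul 2, inside its CTRL range. Across the 9 libraries, in which both genes share the dissection and the depth, r of Lhx2 with the 6 genes ran from 0.111 for Slc17a7 to 0.595 for Lef1, with 0.280 for Tcf7l2 and 0.148 for Shox2. For Nes, r with the 6 genes ran from -0.571 for Slc17a7 to -0.264 for Lef1. Whether tissue from outside the mediobasal hypothalamus contributed to the Lhx2 or Nes values was not tested.

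Of the filament genes, Nes came closest to a difference. Nestin (chromosome 3, 87971078 to 87980451, plus strand) forms filaments in neural stem cells and in the processes of tanycytes. It was at 3.56, 3.54, 3.78 and 3.73 log2 CPM in CTRL 1 to 4 and at 3.30, 3.60, 3.48, 3.47 and 3.60 in Emul 1 to 5. All 5 Emul libraries lay below the CTRL mean and 3 lay below the lowest CTRL library, but the groups overlapped. The log2 fold change was -0.16 (SE 0.08, interval -0.32 to 0.01), a fold of 0.898. It did not pass the test (limma p = 0.0659, adjusted p = 0.351, exact permutation p = 0.0952). Of 23 alternative settings, 6 gave Nes an unadjusted p under 0.05, among them the fits without CTRL 2, Emul 2 or Emul 5, and in all 23 it was lower in Emul.

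Vim (chromosome 2, 13573927 to 13582826, plus strand), which encodes vimentin, was at 5.56, 5.20, 5.38 and 5.37 log2 CPM in CTRL 1 to 4. In Emul 1 to 5 it was at 5.42, 5.14, 5.32, 5.23 and 5.35 log2 CPM, and 4 of these lay below the CTRL mean. Between the groups the log2 fold change was -0.09 (SE 0.07, interval -0.24 to 0.07, limma p = 0.248, adjusted p = 0.585, exact permutation p = 0.357). It was -0.03 without CTRL 1, the highest library, and -0.15 without CTRL 2, the lowest of CTRL.

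Col23a1, Gpr50 and Scn7a, the membrane proteins among the markers, had group means within 0.05 log2 units of each other. Col23a1 (chromosome 11, 51289920 to 51583918, plus strand) was at 5.17, 5.17, 5.32 and 5.46 log2 CPM in CTRL 1 to 4 and at 5.20, 5.22, 5.34, 5.09 and 5.47 in Emul 1 to 5. Emul held both the lowest and the highest library. Emul minus CTRL, the log2 fold change was -0.02 (SE 0.08, interval -0.19 to 0.15, limma p = 0.815, adjusted p = 0.934, exact permutation p = 0.889).

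Gpr50 (chromosome X, 71663667 to 71669257, plus strand) was at 3.83, 3.52, 3.83 and 4.00 log2 CPM in CTRL 1 to 4 and at 3.66, 3.85, 3.84, 3.62 and 4.18 in Emul 1 to 5. CTRL 2 was the lowest and Emul 5 the highest. Its log2 fold change was 0.03 (SE 0.12, interval -0.23 to 0.28, limma p = 0.811, adjusted p = 0.933, exact permutation p = 0.778), and its sign changed in 7 of 23 alternative settings, among them without Emul 5, where it was -0.05, and without CTRL 2, where it was -0.07.

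Scn7a (chromosome 2, 66673425 to 66784914, minus strand) was at 4.54, 4.69, 4.80 and 4.87 log2 CPM in CTRL 1 to 4 and at 4.62, 4.58, 4.69, 4.55 and 4.96 in Emul 1 to 5. Emul 5 was again the highest, and 4 of 5 Emul libraries lay below the CTRL mean. Between the groups the log2 fold change was -0.05 (SE 0.09, interval -0.24 to 0.14, limma p = 0.585, adjusted p = 0.827, exact permutation p = 0.698).

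Fgf10 (chromosome 13, 118669791 to 118792115, plus strand), the ligand among the markers, was at 2.44, 2.65, 2.63 and 2.68 log2 CPM in CTRL 1 to 4. In Emul 1 to 5 it was at 2.64, 2.63, 2.57, 2.34 and 2.61 log2 CPM. CTRL 1 and Emul 4 stood low, and the other 7 libraries lay between 2.57 and 2.68. Emul minus CTRL, the log2 fold change was -0.05 (SE 0.09, interval -0.25 to 0.15, limma p = 0.586, adjusted p = 0.828, exact permutation p = 0.563).

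Other genes of tanycytes, a list of 22 that were all tested, held 3 with an unadjusted p under 0.05 (5 without Emul 1) and 0 with an adjusted p under 0.05, and all 3 were lower in Emul. Over all genes tested, 15.8% had an unadjusted p under 0.05, 6.84% higher and 8.99% lower in Emul. The median log2 fold change of the list was -0.02. Sox2, a factor that keeps neural stem cells and radial glia undifferentiated, was at 5.52, 5.47, 5.67 and 5.50 log2 CPM in CTRL 1 to 4 and at 5.33, 5.27, 5.25, 5.36 and 5.11 in Emul 1 to 5. The groups did not overlap, which held for 1 of 22 genes in the list and for 6.6% of all genes. The log2 fold change of Sox2 was -0.26 (SE 0.05, interval -0.38 to -0.14, limma adjusted p = 0.101, exact permutation p = 0.00794, the smallest this design can give). It kept an unadjusted p under 0.05 in all 23 alternative settings. Its lowest libraries were Emul 2, 3 and 5, and Emul 1 and Emul 4, at 5.33 and 5.36, also lay below every CTRL library.

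Nr2e1, an orphan nuclear receptor of neural stem cells, had a log2 fold change of -0.25 (SE 0.09, limma adjusted p = 0.213), or -0.21 and no longer called without CTRL 4. Its log2 fold change was -0.10 with lengthScaledTPM counts (gene counts rebuilt from TPM) and -0.090 in the authors' gene table, and neither was called. Six3, an anterior forebrain homeobox gene, had one of -0.36 (SE 0.15, adjusted p = 0.262). Six3 kept an unadjusted p under 0.05 in 16 of 23 alternative settings and lost it, at -0.25 to -0.33, without CTRL 1, CTRL 3, Emul 2, Emul 3 or Emul 5, and its lowest libraries were Emul 2, 3 and 5. In those 3 libraries Vip, a peptide of the suprachiasmatic nucleus chosen after values were seen, was at 0.42, 0.17 and -0.17 log2 CPM, against 2.42 to 3.41 in the other 6. Nms, another suprachiasmatic peptide gene, was too low to be tested and was also lowest in those 3 libraries. Vipr2 and Lhx1, also of that nucleus, did not share this order: Vipr2 was lowest in CTRL 2, at 2.09 log2 CPM, and Lhx1 in CTRL 3, at 3.46, with Emul 5 at 3.91 the second highest. The part of suprachiasmatic tissue in the Six3 and Sox2 values was not tested. Dio2, the deiodinase that makes active thyroid hormone, was not called, with a log2 fold change of 0.33 (SE 0.16, limma p = 0.0607, exact permutation p = 0.0952).

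**Figure D2:**
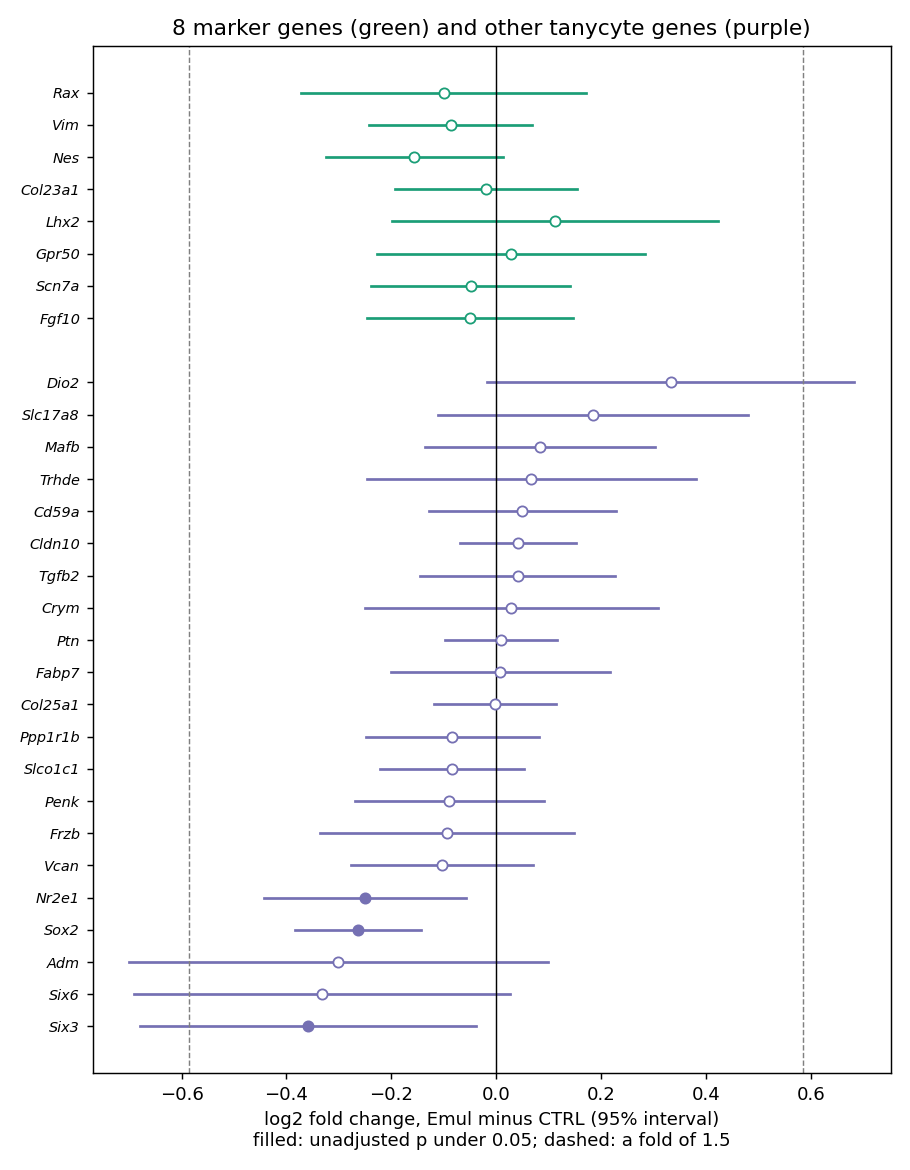
Log2 fold changes, Emul minus CTRL, with 95% intervals from limma-voom, for the 8 markers (green) and 21 other tanycyte genes (purple, in order of size), filled where the unadjusted p was under 0.05, with dashed lines at a fold of 1.5. No marker is filled and no marker's interval reaches a dashed line, while Nr2e1, Sox2 and Six3 are filled on the lower side.

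The list of intermediate filament and radial glia genes around Vim and Nes held 21 genes tested. Of these, 8 had an unadjusted p under 0.05, 2 higher and 6 lower in Emul, and 0 an adjusted p under 0.05, with a median log2 fold change of 0.02. Over all genes, 15.8% had an unadjusted p under 0.05, 6.84% higher and 8.99% lower. The count was 4 without Emul 5 and 5 without CTRL 2 or without CTRL 3. Gfap was at 8.51, 8.24, 8.41 and 8.22 log2 CPM in CTRL 1 to 4 and at 7.75, 8.08, 7.74, 8.14 and 7.96 in Emul 1 to 5. The groups did not overlap, with a log2 fold change of -0.40 (SE 0.09, limma adjusted p = 0.102). Gfap is also a marker of astrocytes, and it was the only 1 of 8 astrocyte markers with an unadjusted p under 0.05. The summed level of those 8 markers, Gfap among them, was 2175 to 2271 TPM in CTRL and 1896 to 2104 TPM in Emul. TPM was not scaled by TMM, and in the limma fit the median log2 fold change of the 8 was -0.04. The part of astrocyte RNA in the Gfap and Nes values was not tested.

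Sox9, Prom1 and Msi1, called genes of the radial glia and stem cell state in that list, were closer to their CTRL levels than Gfap. The list as a whole went both ways, with 12 genes higher and 9 lower in Emul. Sox9, a glial fate factor, had a log2 fold change of -0.16 (SE 0.05, limma adjusted p = 0.181), Prom1, a membrane protein of ventricle-lining stem cells, one of -0.14 (SE 0.05, adjusted p = 0.199) and Msi1, an RNA-binding protein of neural stem cells, one of -0.13 (SE 0.04, adjusted p = 0.181). The groups overlapped for Sox9 and did not for Prom1 and Msi1. In the whole list they did not overlap for 3 of 21 genes, against 6.6% of all genes. The 2 genes called higher were Id2, at 0.16, and Nefl, at 0.14 (limma adjusted p = 0.296 and 0.248). Notch1 and Id4 were also called lower, at -0.13 and -0.16 (limma adjusted p = 0.273 and 0.309).

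Among FGF ligands and receptors, 3 of 15 genes tested had an unadjusted p under 0.05, 2 higher and 1 lower, against 15.8% of all genes. The groups did not overlap for 2 of the 15, Fgfr2 and Fgf12, against 6.6% of all genes. Fgfr2, whose protein includes a splice form that is the main receptor of FGF10, had a log2 fold change of -0.24 (SE 0.06, limma adjusted p = 0.112), with groups that did not overlap. Fgf12 and Fgf13, intracellular relatives that bind neuronal sodium channels, had log2 fold changes of 0.16 and 0.19. The direction of Fgf12 turned in the authors' gene table, where its log2 fold change was -0.04.

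Of the 22 hypothalamic and eye field transcription factors tested, 5 had an unadjusted p under 0.05, all lower in Emul, with a median log2 fold change of -0.05 for the list. Over all genes, 15.8% had an unadjusted p under 0.05, and 8.99% were lower at that p. Only Vax1, at -0.69 (SE 0.31, limma adjusted p = 0.301), also passed the fold of 1.5, and it kept an unadjusted p under 0.05 in 11 of 23 alternative settings. Without CTRL 1, CTRL 2, CTRL 3, Emul 2, Emul 3 or Emul 5 it lost that call, at -0.52 to -0.70. Its lowest libraries were Emul 2, 3 and 5 as for Six3 and Vip, but not for Vipr2 and Lhx1. Fezf1, Isl1 and Nkx2-2 were at -0.32, -0.22 and -0.24. The list shares Six3 and Six6 with the other tanycyte genes.

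In the list of melatonin receptors and voltage-gated sodium channels, 1 of 11 genes tested had an unadjusted p under 0.05, Scn3b, with a log2 fold change of 0.09. Over all genes tested the share with such a p was 15.8%. Mtnr1a, a melatonin receptor gene and relative of Gpr50, had only 8 to 25 estimated counts per library and was not tested. In the collagen list, 1 of 7 genes had an unadjusted p under 0.05, Col4a5 of basement membranes, at -0.16. It was not called with lengthScaledTPM counts, at -0.089, or in the authors' gene table, at -0.083. None of these genes had an adjusted p under 0.05 by limma.

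Few markers of the other cell types that the dissection could hold had an unadjusted p under 0.05, which 15.8% of all genes tested had. Of 8 ependymal markers, Tekt4 had an unadjusted p under 0.05, with a log2 fold change of 0.39, and the list summed to 117 to 166 TPM in CTRL and 114 to 148 TPM in Emul. Of 8 endothelial markers, Slco1a4 did, at -0.25, with 186 to 220 TPM against 181 to 193 TPM, and of 5 oligodendrocyte precursor markers Olig1 did, at -0.15, with 334 to 394 TPM against 287 to 344 TPM. These TPM sums were not scaled by TMM. In the limma fit the median log2 fold changes were 0.01 for ependymal, 0.03 for endothelial and -0.11 for oligodendrocyte precursor markers. In the lists for mural cells and fibroblasts (8 tested), pars tuberalis and pituitary (4), choroid plexus (2), arcuate neurons (7) and microglia (5), 0 genes had an unadjusted p under 0.05 by limma.

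The spread within groups was large for several markers. Beside the 500 genes closest to it in mean level, Col23a1 had a within-group SD above 96.6% of them, Gpr50 above 95.2%, Scn7a above 93.0%, Lhx2 above 92.4% and Vim above 91.6%. Nes stood at 67.8%, Fgf10 at 27.6% and Rax at 19.0%. For Col23a1 the within-group SD was 0.14 log2 units, against a median of 0.07 for genes of like level.

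This spread was partly shared between markers. In CTRL 3 and in Emul 5, 8 of 8 markers lay above their own mean over the 9 libraries, and in Emul 4, 0 of 8 did. The mean deviation of the 8 markers was -0.02, -0.10, 0.12 and 0.09 log2 units in CTRL 1 to 4. It was -0.10, -0.03, 0.07, -0.16 and 0.13 in Emul 1 to 5. Emul held both the highest and the lowest library, and the group means differed by -0.04.

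**Figure D3:**
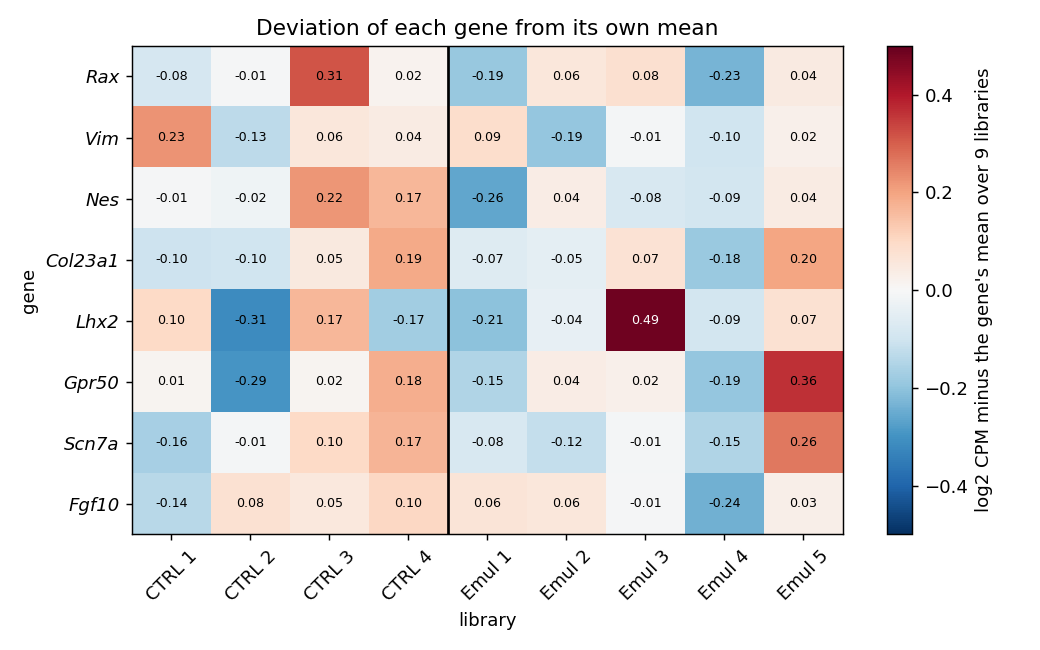
Deviation of each marker from its own mean over 9 libraries, in log2 CPM, with CTRL left and Emul right of the black line, red above and blue below the mean. The columns of CTRL 3 and Emul 5 are above the mean for all 8 markers and that of Emul 4 is below it for all 8.

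Pairs of markers were compared by Pearson's r over the 9 libraries, which share dissection, depth and scaling. These correlations describe the libraries and were not tested. The median over the 28 pairs was 0.397, against -0.00 for pairs of 1023 genes spread over the table. An r above 0.5 was found in 39.3% of marker pairs and in 11.0% of those other pairs. The 1023 genes were not matched to the markers in level or spread. Col23a1 and Scn7a had the highest r, 0.907, which was 0.866 without Emul 5. Col23a1 and Gpr50 followed at 0.850, or 0.777 without Emul 5, then Rax and Nes at 0.765 and Gpr50 and Scn7a at 0.698. The last rested in part on Emul 5, without which it was 0.449. Over all 9 libraries Vim followed the other markers least, with r between -0.126 and 0.278. Without the 2 libraries farthest from the median of Vim, r was 0.573 with Col23a1, 0.540 with Gpr50, 0.495 with Fgf10 and 0.416 with Scn7a. It was 0.223 with Lhx2 and 0.120 with Nes. With Rax it was -0.568 without the 2 libraries farthest from the median of Rax.

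The same 3 membrane proteins went with Tbx3, a T-box factor of arcuate neurons that also acts in the ventral hypothalamus. Its r was 0.927 with Col23a1, 0.919 with Scn7a and 0.889 with Gpr50. Tbx3 was also 1 of the 2 genes picked for the highest r with Col23a1, so this value is a description. Cga, a marker of pars tuberalis and pituitary, had an r of 0.910, 0.793 and 0.770 with Col23a1, Scn7a and Gpr50. Tshb, of the same list, went the other way, at -0.579, -0.589 and -0.567. The mean profile of the arcuate neuron markers, Tbx3 among them, had an r of 0.807 with Gpr50, 0.744 with Col23a1 and 0.737 with Scn7a. These were 0.308, 0.226 and -0.003 once the 2 libraries farthest from the median were left out, so they rest on those libraries. Emul 5 had the highest Agrp, at 4.00 log2 CPM against 3.23 to 3.62, and the highest Npy, at 6.20 against 5.28 to 5.70. How much arcuate, median eminence and pars tuberalis tissue each dissection held was not tested as a source of the shared spread. Nes went with the means of the astrocyte markers, at an r of 0.828, and of the other tanycyte genes, at 0.841. These were 0.583 and 0.602 without the 2 farthest libraries. The mean of the other tanycyte genes had an r of 0.541 with Gpr50, 0.374 with Col23a1 and 0.309 with Scn7a. Without the 2 farthest libraries it was 0.622, 0.338 and 0.128.

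**Figure D4:**
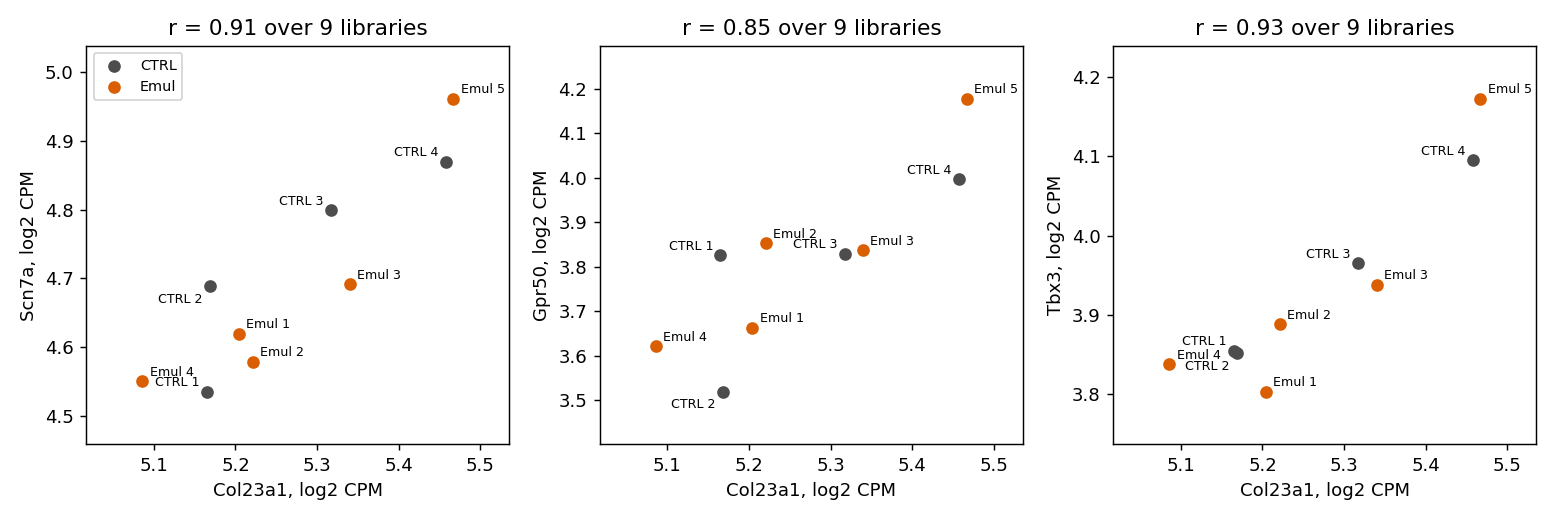
Log2 CPM of Scn7a, Gpr50 and Tbx3 against Col23a1 in the same library, each point 1 library, CTRL in grey and Emul in orange. Emul 5 and CTRL 4 are at the upper right in all 3 panels, and CTRL and Emul libraries are mixed along the diagonal.

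Because Col23a1, Gpr50 and Scn7a varied together, their promoters are shown, as 250 bases before and 50 after the RefSeq start (GRCm38.p6), 5′ to 3′ on the gene's strand. Capitals mark the GC box GGGCGG, the letters bound by Sp1, searched on both strands. The windows are chr11:51289670-51289969 (plus strand), chrX:71663417-71663716 (plus strand) and chr2:66784861-66785160 (minus strand).
Col23a1: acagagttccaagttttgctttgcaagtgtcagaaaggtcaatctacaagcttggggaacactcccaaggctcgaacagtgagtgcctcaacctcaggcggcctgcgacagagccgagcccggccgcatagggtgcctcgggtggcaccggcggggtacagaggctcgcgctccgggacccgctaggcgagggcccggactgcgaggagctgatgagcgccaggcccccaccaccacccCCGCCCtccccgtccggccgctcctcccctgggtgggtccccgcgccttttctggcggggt
Gpr50: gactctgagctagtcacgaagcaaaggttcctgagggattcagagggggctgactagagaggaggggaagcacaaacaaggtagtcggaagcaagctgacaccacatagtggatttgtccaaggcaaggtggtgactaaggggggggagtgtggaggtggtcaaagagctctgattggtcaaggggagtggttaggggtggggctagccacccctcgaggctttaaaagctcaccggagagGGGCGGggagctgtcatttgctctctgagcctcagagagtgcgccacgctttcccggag
Scn7a: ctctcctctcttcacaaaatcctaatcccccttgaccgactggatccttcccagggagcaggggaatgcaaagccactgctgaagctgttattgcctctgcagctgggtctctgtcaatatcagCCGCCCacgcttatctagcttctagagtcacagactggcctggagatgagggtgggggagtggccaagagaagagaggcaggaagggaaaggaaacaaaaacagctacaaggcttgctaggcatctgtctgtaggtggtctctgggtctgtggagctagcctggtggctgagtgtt
Each of the 3 windows held 1 GC box, a motif found in 35.7% of the 32851 promoter windows of this length. They differed in CpG dinucleotides, with 24 in Col23a1, 8 in Gpr50 and 3 in Scn7a, where the median window held 7. The homeodomain core TAATTA, whose reverse complement is the same word, was in 0 of the 8 windows held for 7 of the markers and in 5.29% of all windows, which says only that these letters are not there.

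The genes most like the mean profile of the 8 markers, by r over the 9 libraries, were Mmp14 at 0.964, Fndc3c1 at 0.947, Ccdc187 at 0.943, Rfx5 at 0.927 and Fzd5 at 0.922. They were picked as the highest of all genes tested, so these values are descriptions. Mmp14 encodes a membrane-bound matrix protease and Fzd5 a Wnt receptor. None of the 5 had an unadjusted p under 0.05 between Emul and CTRL by limma. For single markers the closest were Celsr1, a cell polarity gene, with Gpr50 at 0.961, Fbxl18 with Nes at 0.959, Pxylp1 with Scn7a at 0.957, Fndc3c1 with Col23a1 at 0.939 and Lingo3 with Fgf10 at 0.938. Rbm15b with Rax, Spg7 with Vim and Sik2 with Lhx2 reached 0.924, 0.905 and 0.902.

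The transcripts behind the gene sums differed between markers. Scn7a had 1 quantified transcript, and for Nes, Col23a1, Gpr50 and Fgf10 the largest transcript took 99.1%, 98.9%, 96.6% and 99.4% of the estimated counts over all libraries. Rax, Vim and Lhx2 were more divided, Rax the most. The largest coding transcript of Rax took 56.9%. Its 3 transcripts with a retained intron took 39.7%, ranging from 32.1% in CTRL 4 to 52.1% in CTRL 1. Vim had 76.6% on its largest transcript, 15.1% on the next coding transcript and 8.29% on 3 transcripts with a retained intron. The share of the largest transcript did not pass the exact permutation test in any of the 7 markers with several transcripts, with p from 0.452 to 0.952.

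**Figure D5:**
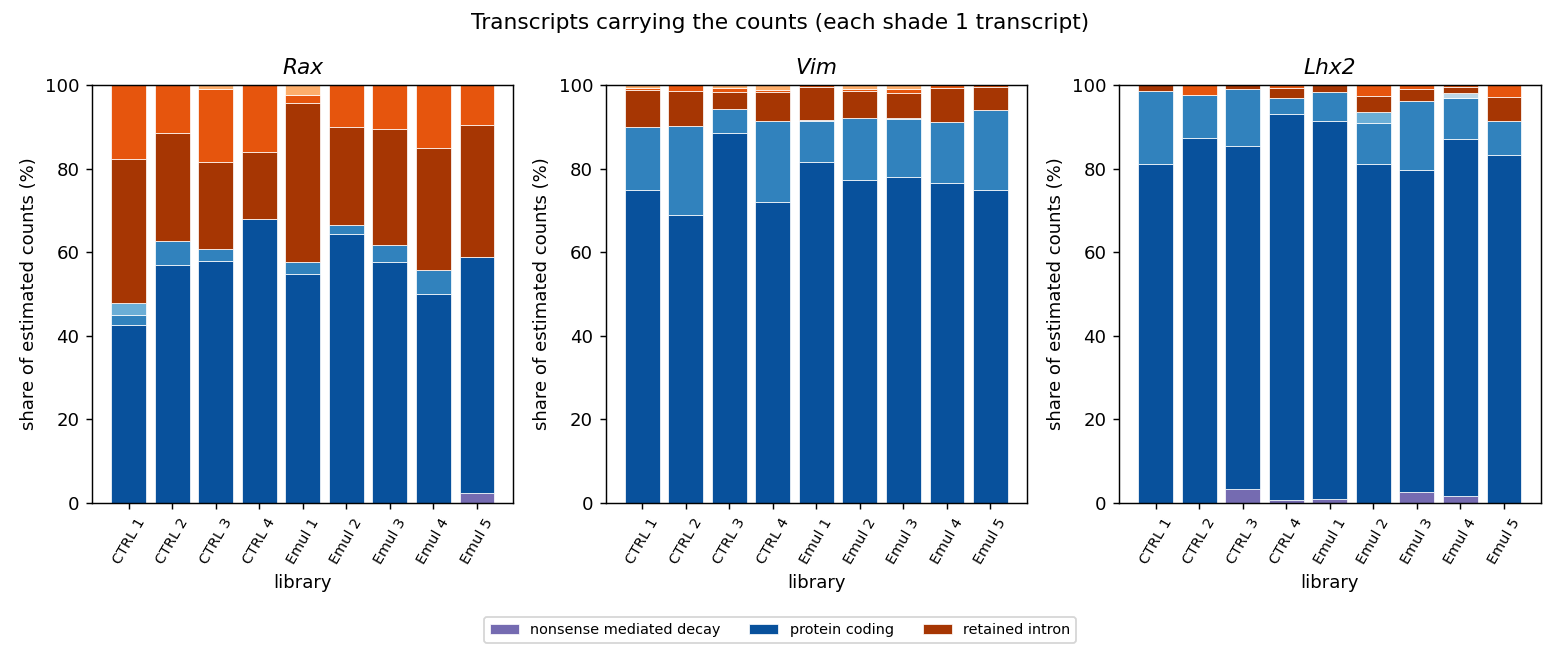
Share of the estimated counts of Rax, Vim and Lhx2 on each quantified transcript in each library, in percent, coloured by the annotated transcript type with 1 shade per transcript. Retained-intron transcripts take 32.1% to 52.1% of Rax and at most 10.1% of Vim and 8.60% of Lhx2.

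The choice of transcripts set the level of Rax. In the authors' gene table it averaged 0.48 log2 CPM, 0.70 lower than the gene sum, while the other 7 markers averaged 0.11 to 0.12 higher there than their gene sums. Library by library, the authors' Rax value was 0.13 to 0.16 above that of the largest transcript alone, and 0.43 to 1.08 below that of all 7 transcripts. On the largest transcript alone Rax was at 0.39 ± 0.39 log2 CPM in CTRL (SD, n = 4) and 0.31 ± 0.27 in Emul (SD, n = 5), a difference of -0.08 (exact permutation p = 0.730). The level of Rax depended on the transcripts counted, and the comparison between groups did not pass the test either way. Antisense genes overlap Rax, Lhx2 and Fgf10 in the annotation, and none of them had a quantified transcript. The libraries were stranded, and whether the counting used strand is not given in the sources used here.

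Lhx2 counts came from transcripts with separate starts. The largest, with 84.0% of the counts over all libraries, starts downstream within the gene, and a coding transcript that starts at its upstream end took 11.0%, from 3.80% in CTRL 4 to 17.4% in CTRL 1. RefSeq also gives Lhx2 a pair of starts (the downstream one not at the same base), and the promoter windows of both are shown to compare them, with the GC box in capitals. They lie at chr2:38339031-38339330 and chr2:38351058-38351357, both on the plus strand.
Lhx2 upstream: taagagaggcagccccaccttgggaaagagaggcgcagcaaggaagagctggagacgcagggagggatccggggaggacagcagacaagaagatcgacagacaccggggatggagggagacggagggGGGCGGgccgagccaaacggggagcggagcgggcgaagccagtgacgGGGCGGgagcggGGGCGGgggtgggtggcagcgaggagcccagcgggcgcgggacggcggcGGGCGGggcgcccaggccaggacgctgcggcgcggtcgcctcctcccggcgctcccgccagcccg
Lhx2 downstream: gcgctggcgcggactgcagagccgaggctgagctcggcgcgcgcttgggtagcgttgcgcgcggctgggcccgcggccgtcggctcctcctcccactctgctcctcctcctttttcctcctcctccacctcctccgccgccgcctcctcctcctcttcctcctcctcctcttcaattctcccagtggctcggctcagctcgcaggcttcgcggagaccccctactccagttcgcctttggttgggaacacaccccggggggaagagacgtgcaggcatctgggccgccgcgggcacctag
The upstream window held 4 GC boxes and 34 CpG dinucleotides, and the downstream window 0 GC boxes and 29 CpG dinucleotides. The share of the largest Lhx2 transcript was 85.7% ± 5.21 in CTRL (SD, n = 4) and 83.4% ± 5.02 in Emul (SD, n = 5), with an exact permutation p = 0.540.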

How the data were processed

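RNA from the mediobasal hypothalamus of 9 mice was sequenced by the authors as stranded, paired-end mRNA libraries. Per the submitters' processing notes, FastQC 0.11.9, kallisto 0.46.1, edgeR 3.40.1 and the build mm10 were used. For each library the authors deposited kallisto's estimated counts (expected counts, not normalized, not always whole) and TPM for 119414 transcripts. They also deposited a gene table of log2 CPM, which the authors had filtered and normalized; how transcripts were summarised for it is not given in the sources used here. Groups and replicate numbers were taken from the labels.

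Transcripts were matched by Ensembl identifier to GENCODE M21 (GRCm38), 97.8% of them (97.3% with the same version), and unmatched transcripts, with 1.20% to 1.27% of the counts, were dropped. Estimated counts and TPM were summed per gene. The filter asked for CPM over 1 in 4 or more libraries and left 15340 genes. Emul and CTRL were compared with limma-voom (limma 3.58.1, edgeR 4.0.16 for TMM, R 4.3.3), without covariates, with Benjamini-Hochberg adjustment over all genes tested. Single-library log2 CPM used a prior count of 2. Intervals are at 95%. For single values the exact permutation test was two-sided and used every labelling of the 9 libraries. Counts were rounded for edgeR and for DESeq2 1.42.0, which were alternatives, as were limma-trend, quality weights, other scalings, filters and transcript summaries, the authors' table, a replicate block and each library left out. The limma-voom, limma-trend, edgeR and DESeq2 tests were also run on simulated counts. The exact permutation test and the other alternatives were not. Depth, 28245360 to 46067534 estimated counts per library, gives a relative counting error at the lowest library of 2.90% for Vim to 7.27% for Lhx2, 7.56% for Fgf10 and 11.4% for Rax.

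The 8 markers and all 15 gene lists were chosen with earlier results of these data known. Of each list the genes named are those past the adjusted p, then the cutoff, then with the smallest p, up to 4, with marker genes needed for levels, and the genes most like the markers by r (mean log2 CPM of at least 1). Mtnr1a, Agrp, Npy and Foxj1 are named for level or role. Id2, Nefl, Notch1 and Id4 are named as the other called genes of their list. Cga and Tshb are named for their r, chosen after values were seen. Of the other tanycyte genes, 1 is counted but not reported here. The thalamic and suprachiasmatic genes were chosen after values were seen. Promoters are from RefSeq (GRCm38.p6), matched by symbol for 7 markers and not shown for Rax. No library pair within a group agreed within sampling noise.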

Additional observations from a re-analysis of the deposited data

Results flagged for a closer look

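Of 72 groups of values examined for a library far from the rest, 3 stood out by Dixon's test, where chance gives about 1 in 20 groups, or 3.6. Fgf10 was at 2.34 log2 CPM in Emul 4, against 2.57 to 2.64 in the other Emul libraries, a gap of 0.765 of the group's range. Slco1a4, a transporter of brain endothelium, was at 5.41 in Emul 5, against 5.61 to 5.68 (gap 0.738). Msi1 was at 5.53 in CTRL 4, against 5.38 to 5.40 in the other CTRL libraries (gap 0.850).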

How the results depend on the processing

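The fold cutoff and an adjusted p under 0.05 called 0 of 8 markers in every setting run. An unadjusted p under 0.05 was reached by 0 markers as reported, by 1 with sample quality weights or library size alone, by 2 with the replicate block, and by 0 to 2 with each library left out (2 without CTRL 2, 1 without Emul 2 or Emul 5). These were Nes, in 6 of 23 alternatives, and Vim, in 2 of 23. The log2 fold change of Gpr50 turned to -0.0012 with quality weights, -0.00030 with library size alone, -0.042 with lengthScaledTPM, -0.062 with the replicate block and -0.029 in the authors' table, and ranged from -0.072 to 0.109 with each library left out. In the same way Col23a1 ranged from -0.068 to 0.048, Scn7a from -0.115 to 0.0076 and Fgf10 from -0.106 to 0.014. Fgf12 was at -0.038 in the authors' table. As a share of TPM, the difference in the largest transcript was -1.29 percentage points for Rax and -0.41 for Nes. With each library left out, the differences in share of counts ranged from -4.25 to 4.21 points for Rax, -0.71 to 5.84 for Vim, -0.17 to 0.39 for Nes, -0.23 to 0.16 for Col23a1 and -0.078 to 0.54 for Fgf10. Other tanycyte genes with an unadjusted p under 0.05 numbered 3 as reported, 5 with DESeq2, limma-trend or a prior count of 0.5, and 2 to 5 with each library left out. Radial glia and filament genes numbered 8 as reported, 5 with lengthScaledTPM, the replicate block or the authors' table, and 4 to 9 with each library left out (4 without Emul 5, 5 without CTRL 2 or CTRL 3). Of all genes, 72 passed the cutoff, 683 with no filter and 37 with a CPM above 1 in all 9 libraries. An adjusted p under 0.05 was reached by 18 genes as reported, 33 with edgeR, 341 with DESeq2, 8 with limma-trend, 36 with quality weights, 10 with median-of-ratios scaling or protein-coding transcripts, 60 with library size alone, 6 without mitochondrial genes or with lengthScaledTPM, 5 with no filter or in the authors' table, 1 with the replicate block and 0 (without CTRL 2) to 24 (without Emul 4) with each library left out. Leaving out 1 library also ended the unadjusted call of Prom1 (-0.11 without CTRL 1), Scn3b (0.062 without CTRL 1 and 0.075 without Emul 1) and Olig1 (-0.092 to -0.16 without CTRL 1, CTRL 3, Emul 1, Emul 3 or Emul 5). In the authors' table the unadjusted call also ended for Nr2e1 (-0.090), Col4a5 (-0.083), Tekt4 (0.256), Nkx2-2 (-0.18), Prom1 (-0.14) and Scn3b (0.074). The causes were not tested. The replicate numbers do not pair the libraries: correlations of same-numbered deviations were -0.163, -0.015, 0.021 and -0.055.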
